A study of Mus musculus with 10 samples.

Results

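Guanylate-binding proteins (Gbps) are large GTPases that are encoded in the mouse by a cluster of genes on chromosome 5 and another on chromosome 3. Their transcripts were measured in CD4 CD8 double-positive (DP) thymocytes, the cortical stage at which T cells rearrange their alpha receptor chain, from mice lacking E2A, HEB or both. E2A (gene Tcf3) and HEB (gene Tcf12) are E proteins, basic helix-loop-helix transcription factors that bind E-box DNA. The members were chosen by symbol and, where a gene has several probe sets, by the highest mean intensity over the arrays: every gene whose symbol begins with Gbp and a digit and whose probe set on the array carries that symbol alone was taken. This gave 8 of the 19937 genes so named, Gbp2b, Gbp3, Gbp4, Gbp5, Gbp7, Gbp8, Gbp9 and Gbp11. Each of the 8 had 1 probe set, so the mean intensity decided nothing. A further 2 probe sets carry several symbols with a Gbp among them and are given apart.

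Every mouse carried a Cre recombinase driven by Cd4, controls included, and was 8 weeks old. The groups were wild-type cd4-cre+ (WT, 3 mice), E2Aflox/flox Cd4-cre+ (E2AKO, 2 mice), HEBflox/flox cd4-cre+ (HEBKO, 2 mice) and E2Aflox/flox HEBflox/flox cd4-cre+ (DKO, 3 mice). Because Cre came from Cd4, deletion began only once a cell had turned that gene on. About 1000000 DP cells per mouse were sorted to a purity above 98%, and 6 µg of RNA went to 1 Affymetrix array per mouse. The medians of the 10 arrays lay between 92.6 and 98.6 intensity units. Values below are log2 intensities, and 1 log2 unit is a factor of 2. They compare arrays for 1 probe set and not the amounts of different genes.

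The targeted genes followed the labels. On the log2 scale Tcf3 was at 9.65, 9.85 and 9.63 in WT, at 9.23 and 9.12 in E2AKO and at 9.29, 8.93 and 8.94 in DKO, while HEBKO arrays read 10.02 and 10.06. Tcf12 was at 11.91, 11.74 and 11.86 in WT, at 11.15 and 11.48 in HEBKO and at 10.68, 10.73 and 10.71 in DKO, with E2AKO at 12 and 11.87. Every array of a deleted genotype was below every WT array for its gene. For WT and E2AKO the DP label was borne out by Cd8a, at 13 to 13.1, and by Cd4, at 12.19 to 12.29. HEBKO arrays read 12.83 and 13.13 for Cd8a but 11.34 and 11.77 for Cd4. Both genes were lowest in DKO, where Cd4 read 10.21, 10.64 and 10.2. Cd8a read 12.57, 12.66 and 12.71 there, a log2 difference from WT of -0.45 (limma adjusted p = 0.00959). Of 10 DP thymocyte markers, 8 were called lower in DKO, beside 5.41% of all genes. In bulk RNA of sorted cells, fewer cells of one kind and less RNA per cell cannot be told apart.

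Gbps are among the genes most strongly induced by interferons, above all by interferon gamma, in part through Irf1. The proteins bind and hydrolyse guanine nucleotides, assemble on the membranes of vacuoles that hold intracellular microbes, and promote the lysis of those vacuoles and the activation of inflammasomes. Some of them, Gbp2 and Gbp5 among them, are anchored to membranes by a prenyl group. They are best known in macrophages, and T lineage cells also express them.

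Of the 8 genes, 6 were tested: Gbp8, Gbp9, Gbp4 and Gbp11 of chromosome 5 and Gbp7 and Gbp3 of chromosome 3. Each of these 6 was above the filter on dim probe sets, the 40th percentile of the array (6.03 to 6.13 log2 units), in all 10 arrays. Gbp3 was the nearest above that level, with a lowest value of 6.25. Gbp5, which promotes assembly of the Nlrp3 inflammasome, was the nearest below it and read 5.32, 5.48 and 5.46 in WT, 5.26 and 5.49 in E2AKO, with HEBKO at 5.46 and 5.55 and DKO at 5.74, 5.42 and 5.7. Gbp2b lay between 4.79 and 5.29. Gbp5 and Gbp2b were below the filter on 10 of 10 arrays and were not tested.

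**Figure D1:**
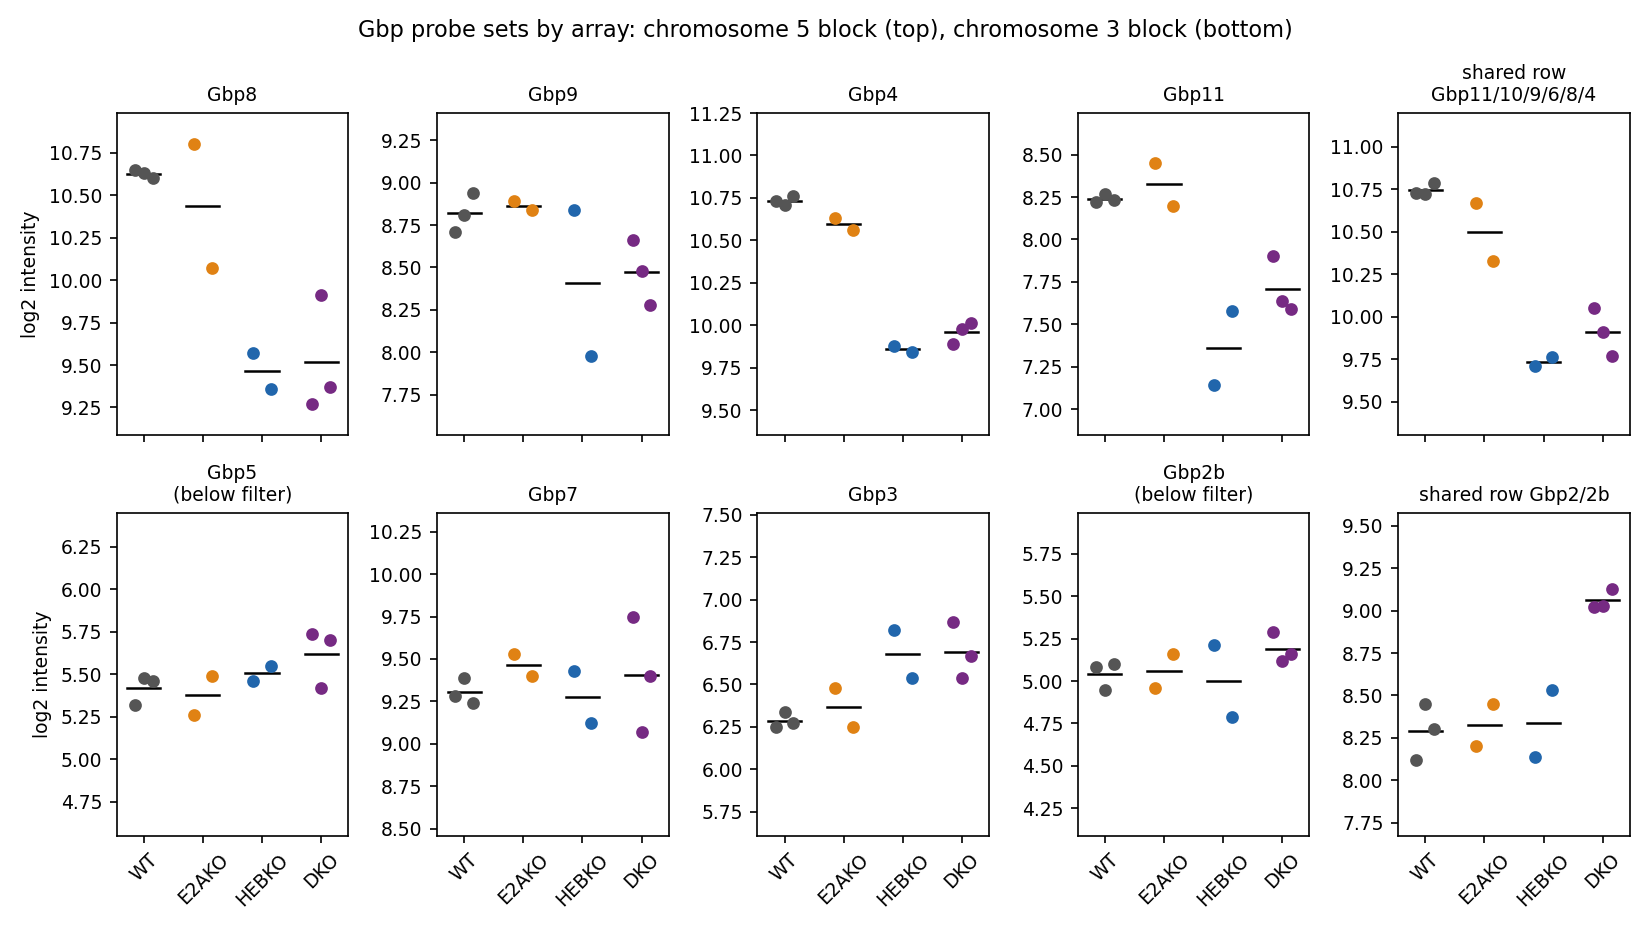
Log2 intensity (vertical axis) of each Gbp probe set, by genotype (horizontal axis), with 1 point per mouse and a line at the group mean. Every panel spans the same number of log2 units. In the panels for Gbp8, Gbp4 and Gbp11 the 5 HEBKO and DKO points all lie below the 5 WT and E2AKO points. In the panel for the probe set shared by Gbp2 and Gbp2b the 3 DKO points lie between 9.02 and 9.13, above all others.

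Of the 4 tested genes of chromosome 5, 3 fell when HEB was deleted, with or without E2A. In RefSeq's order for GRCm38.p6 this cluster runs Gbp8, Gbp9, Gbp4, Gbp10, Gbp6, Gbp11. Gbp4, Gbp8 and Gbp11 fell both in HEBKO and in DKO, to between 44.5% and 69.4% of WT intensity. None of them passed in E2AKO, where 0 of the 13138 genes tested did. Gbp9 did not pass in any comparison. Gbp10 and Gbp6 have no probe set of their own among those used here.

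Gbp4 gave the tightest measurement. Its log2 intensity was 10.73, 10.71 and 10.76 in WT, 10.63 and 10.56 in E2AKO, with HEBKO at 9.88 and 9.84 and DKO at 9.89, 9.98 and 10.01. The arrays fell into separate ranges: the highest of the 5 arrays without HEB was 10.01 and the lowest of the 5 arrays with HEB was 10.56. Gbp4 was 1.83-fold lower in HEBKO than in WT (log2 difference -0.87 ± 0.09 SE, limma adjusted p = 0.00563). It was 1.71-fold lower in DKO (-0.77 ± 0.08 SE, limma adjusted p = 9.21e-05). Without HEBKO 1 the first difference was -0.9 with an adjusted p of 0.0678, whereas the DKO call was kept in all 21 alternative settings (-0.82 to -0.74). In E2AKO both arrays were below all 3 WT arrays, as for 10.6% of genes tested, and the difference of -0.13 (95% interval -0.34 to 0.07) did not pass the test.

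Gbp8 fell the furthest in HEBKO and in DKO among the 6. It read 10.65, 10.63 and 10.6 in WT, 9.57 and 9.36 in HEBKO and 9.27, 9.91 and 9.37 in DKO. The E2AKO mice differed from each other, at 10.8 and 10.07, one above all WT arrays and the other below them, yet still above the 9.91 of DKO 2. The E2AKO difference from WT was -0.2 (95% interval -0.66 to 0.27), without a call. Gbp8 was 2.25-fold lower in HEBKO than in WT (-1.17 ± 0.21 SE, limma adjusted p = 0.0316) and 2.16-fold lower in DKO (-1.11 ± 0.19 SE, adjusted p = 0.0024). Among arrays left out, the HEBKO call ended without WT 1, WT 3, HEBKO 1 or HEBKO 2 (adjusted p 0.0855, 0.133, 0.223 and 0.113), with the difference between -1.27 and -1.06. The DKO call was kept in all 21 alternative settings, with adjusted p up to 0.0137.

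Gbp11, which RefSeq lists as a transcribed pseudogene, was dimmer and followed the same order. It read 8.22, 8.27 and 8.23 in WT, 8.45 and 8.2 in E2AKO, with HEBKO at 7.14 and 7.58 and DKO at 7.9, 7.64 and 7.59. The arrays without HEB reached 7.9 at most and those with HEB 8.2 at least. It was 1.84-fold lower in HEBKO (-0.88 ± 0.14 SE, limma adjusted p = 0.0209) and 1.44-fold lower in DKO (-0.53 ± 0.13 SE, limma adjusted p = 0.0186). The HEBKO call ended without WT 1, WT 3 or HEBKO 1 (adjusted p 0.0633, 0.101 and 0.228) and with only HEBKO and WT fitted (0.0525), and the DKO call without WT 3, DKO 2 or DKO 3 (adjusted p 0.0639, 0.0719 and 0.0823).

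Gbp9 sits between Gbp8 and Gbp4 in the gene order. It read 8.71, 8.81 and 8.94 in WT, 8.89 and 8.84 in E2AKO, with HEBKO at 8.84 and 7.98 and DKO at 8.66, 8.48 and 8.28. All 3 DKO arrays (13.4% of genes tested had such an order) and HEBKO 2 were below the WT arrays, but HEBKO 1 was inside their range. The differences from WT were -0.41 in HEBKO (95% interval -0.85 to 0.03, limma adjusted p = 0.341) and -0.35 in DKO (-0.74 to 0.05, adjusted p = 0.266). Neither passed the test, and without HEBKO 2 the first was 0.02. The DKO difference passed in 1 of 21 alternative settings, with arrays weighted by quality (-0.43, adjusted p = 0.0328).

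A probe set that carries the symbols of all 6 chromosome 5 genes was read apart, in a fit of every probe set with a symbol that was chosen after the data were seen. It read 10.73, 10.72 and 10.79 in WT, 10.67 and 10.33 in E2AKO, with HEBKO at 9.71 and 9.76 and DKO at 10.05, 9.91 and 9.77. Here too the arrays without HEB (10.05 at most) lay below those with HEB (10.33 at least). Both E2AKO arrays were below all WT arrays, and the E2AKO difference of -0.25 (95% interval -0.52 to 0.02) did not pass the test. The shared probe set was 2.01-fold lower in HEBKO (-1.01 ± 0.12 SE, limma adjusted p = 0.0116) and 1.78-fold lower in DKO (-0.83 ± 0.11 SE, limma adjusted p = 0.000556). In that fit 0.772% of 15020 probe sets were called in HEBKO and 14.1% in DKO. The HEBKO call ended without WT 3 (adjusted p = 0.0614) or HEBKO 1 (0.116). These genes are close paralogs, so the signal of one could reach the probes of another. How far the probe sets share targets was not tested, and they are not independent measurements.

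Over the 10 arrays Gbp4 had a Pearson correlation of 0.93 with Gbp8, 0.88 with Gbp11 and 0.66 with Gbp9. The shared probe set had one of 0.96 with Gbp4, 0.93 with Gbp8 and 0.92 with Gbp11. The points share arrays and genotype means, and the values describe these 10 arrays.

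Neither tested gene of chromosome 3 fell. In the same RefSeq order this cluster runs Gbp5, Gbp7, Gbp3, Gbp2b, Gbp2 and the pseudogene Gbp2-ps. Gbp3 rose in DKO, Gbp7 passed no test, and a probe set shared by Gbp2 and Gbp2b rose in DKO and not in HEBKO.

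RefSeq promoter windows of GRCm38.p6, from 250 bases before to 50 bases after an annotated start, were at hand for 5 genes of this cluster, 4 of them members, in 6 windows. Printed 5′ to 3′ on the plus strand is 1 window each of Gbp3 and Gbp7, the tested genes, and of Gbp2 and Gbp2b, which share the probe set that rose. A further Gbp3 window, chr3:142560106-142560405, and the Gbp5 window are not printed. No window was at hand for a gene of the chromosome 5 cluster, so the promoters of Gbp4, Gbp8, Gbp9 and Gbp11 were not searched. Capitals mark every match to the core of the interferon-stimulated response element (ISRE), taken as GAAA, any 2 bases and GAAA. Both strands were searched, and all matches shown lie on the minus strand, so that they read here as the reverse complement.
Gbp3, chr3:142559794-142560093: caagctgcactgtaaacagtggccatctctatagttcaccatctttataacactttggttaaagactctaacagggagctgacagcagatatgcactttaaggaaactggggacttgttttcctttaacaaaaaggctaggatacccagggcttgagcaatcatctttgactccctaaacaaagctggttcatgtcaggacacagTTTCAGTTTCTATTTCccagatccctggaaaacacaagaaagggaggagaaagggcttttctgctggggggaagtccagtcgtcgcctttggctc
Gbp7, chr3:142530086-142530385: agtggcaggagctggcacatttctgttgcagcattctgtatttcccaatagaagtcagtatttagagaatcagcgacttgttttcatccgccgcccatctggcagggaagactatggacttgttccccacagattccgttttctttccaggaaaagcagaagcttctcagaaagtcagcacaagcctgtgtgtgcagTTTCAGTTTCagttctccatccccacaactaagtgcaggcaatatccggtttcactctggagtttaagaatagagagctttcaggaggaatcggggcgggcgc
Gbp2, chr3:142620413-142620712: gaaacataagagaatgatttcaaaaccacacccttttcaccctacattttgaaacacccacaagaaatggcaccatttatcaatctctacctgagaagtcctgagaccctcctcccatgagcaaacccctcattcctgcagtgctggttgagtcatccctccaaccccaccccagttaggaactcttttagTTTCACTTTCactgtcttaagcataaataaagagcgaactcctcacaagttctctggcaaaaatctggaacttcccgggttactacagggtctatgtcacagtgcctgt
Gbp2b, chr3:142594597-142594896: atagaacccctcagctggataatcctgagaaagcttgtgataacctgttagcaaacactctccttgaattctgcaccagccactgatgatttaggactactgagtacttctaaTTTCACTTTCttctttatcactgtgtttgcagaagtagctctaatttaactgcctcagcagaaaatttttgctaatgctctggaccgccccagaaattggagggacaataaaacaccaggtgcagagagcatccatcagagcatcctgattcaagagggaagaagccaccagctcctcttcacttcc
The Gbp3 matches, TTTCAGTTTC and TTTCTATTTC, begin 45 and 39 bases before the start and overlap. The Gbp7 match begins 53 bases before its start and the Gbp2 match, TTTCACTTTC, 59 bases before. The Gbp2b match has the same letters as that of Gbp2 and begins 137 bases before its start. Of the 6 Gbp windows, all of the chromosome 3 cluster, 5 held the ISRE letters, against 3.44% of 32851 promoter windows of the same length. An E-box, CANNTG, was in 3 of the 6 and in 72.3% of all windows. CAGCTG and CAGGTG, forms of the E-box that E proteins favour and that CANNTG includes, were each in 1, that of Gbp2b, and in 16.3% and 20.2% of all windows. A match describes letters in a window and is not a measured binding site.

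Gbp3 was dim, little above the filter. It read 6.25, 6.34 and 6.27 in WT, 6.48 and 6.25 in E2AKO, with HEBKO at 6.82 and 6.54 and DKO at 6.87, 6.54 and 6.67. The 5 arrays without HEB were all above the 5 with HEB, by a narrow gap of 6.54 against 6.48. In DKO Gbp3 was 1.32-fold higher than in WT (0.4 ± 0.12 SE, limma adjusted p = 0.0393). In HEBKO the difference was nearly as large, 0.39 ± 0.13 SE, and did not pass (adjusted p = 0.162). The DKO call ended when any of WT 1, WT 2, WT 3, DKO 1 or DKO 3 was left out (adjusted p 0.102, 0.0529, 0.122, 0.136 and 0.0976). It also ended with the sex of the mice, as inferred from the arrays, as a term (0.34, adjusted p = 0.0552).

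Gbp7, which takes part in the assembly of the phagocyte oxidase on vacuoles that hold microbes, read 9.28, 9.39 and 9.24 in WT and 9.53 and 9.4 in E2AKO. It read 9.43 and 9.12 in HEBKO and 9.75, 9.07 and 9.4 in DKO. HEBKO and DKO arrays lay on both sides of the WT range. Its difference from WT was -0.03 in HEBKO (95% interval -0.4 to 0.35) and 0.1 in DKO (-0.23 to 0.44), so a change of the size seen for Gbp4 or Gbp8 in the same genotypes lay outside both intervals.

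The probe set shared by Gbp2 and Gbp2b read 8.12, 8.45 and 8.3 in WT, 8.2 and 8.45 in E2AKO, with HEBKO at 8.14 and 8.53 and DKO at 9.02, 9.03 and 9.13. The DKO arrays lay close together and above the other 7, an order that 7.59% of probe sets with a symbol showed. The Gbp2b probe set lay between 4.79 and 5.29 on the same arrays. In the fit of every probe set with a symbol, the shared one was 1.71-fold higher in DKO than in WT (0.77 ± 0.13 SE, limma adjusted p = 0.0025), and that call was kept in all 15 alternative settings run (0.69 to 0.85). It was also higher in DKO than in E2AKO (0.74 ± 0.14 SE, adjusted p = 0.00866, where 9.06% of probe sets were called), and without E2AKO 1 the difference was 0.62 with an adjusted p of 0.0941. It was higher in DKO than in HEBKO (0.73 ± 0.14 SE, adjusted p = 0.0206, with 3.06% called), a call that ended without HEBKO 1 (0.53, adjusted p = 0.161), DKO 1 (0.0509), DKO 2 (0.0514) or DKO 3 (0.0842). In E2AKO and HEBKO alone the differences from WT were 0.03 and 0.04 (adjusted p 0.997 and 0.915). The departure from additivity, DKO - E2AKO - HEBKO + WT, was 0.7 ± 0.2 SE and did not pass the test (adjusted p = 0.262, with 0.433% of probe sets called).

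Counted over the 6 tested genes, HEBKO against WT gave 3 lower and 0 higher. The background was 0.632% of 13138 genes called lower and 0.274% called higher in that comparison. DKO against WT gave 3 lower and 1 higher, against 5.41% and 8.18% of genes. E2AKO against WT gave 0 calls in either direction among the members and among all genes (0%), although 418 of all genes and 0 members were under an unadjusted p of 0.05. The median log2 difference of the 6 was -0.64 in HEBKO and -0.44 in DKO, where the medians of all genes tested were 0 and -0.01, and 0.06 in E2AKO, where it was -0.02. These comparisons share the same WT arrays. A gene with all 5 arrays without HEB below all 5 with HEB was found 601 times among the genes tested (4.57%), and the opposite order 719 times (5.47%). Gbp4, Gbp8 and Gbp11 had the first order and Gbp3 the second.

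**Figure D2:**
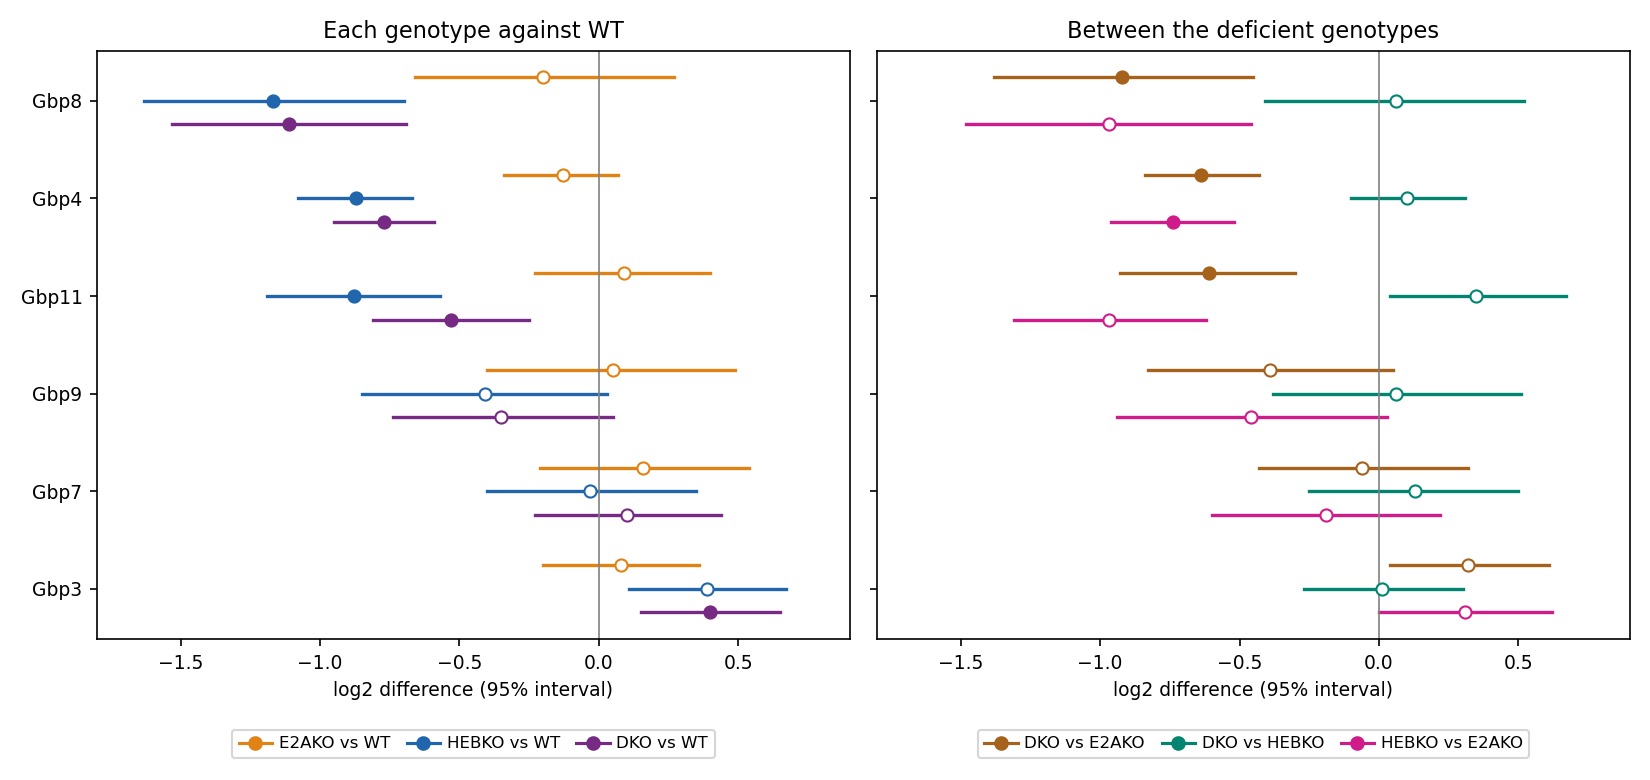
Log2 differences (horizontal axis) of the 6 tested Gbp genes, with 95% intervals, for each genotype against WT (left) and between the deficient genotypes (right). Filled points had a limma adjusted p under 0.05 over all genes tested. Gbp8, Gbp4 and Gbp11 are filled on the low side in HEBKO and DKO against WT, and none is filled in DKO against HEBKO.

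Differences between the deficient genotypes were tested directly. DKO against E2AKO, 2 genotypes that both lack E2A, gave Gbp8 (-0.92 ± 0.21 SE, limma adjusted p = 0.0191), Gbp4 (-0.64 ± 0.09 SE, adjusted p = 0.00115) and Gbp11 (-0.61 ± 0.14 SE, adjusted p = 0.0199) as lower, in a comparison where 3.97% of genes were called lower. Among these the Gbp4 call was kept in all 21 alternative settings. The Gbp8 call ended without E2AKO 1, DKO 1 or DKO 3 and with only the compared groups fitted (adjusted p = 0.0534), and the Gbp11 call without E2AKO 1, DKO 2 or DKO 3. HEBKO against E2AKO gave Gbp4 alone (-0.74 ± 0.1 SE, adjusted p = 0.0418, with 0.0304% of genes called lower), a call kept in 12 of 21 alternative settings and lost with only the compared groups fitted (adjusted p = 0.129). In that comparison Gbp8 and Gbp11 differed by -0.97 each and did not pass (adjusted p 0.107 and 0.0656).

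Loss of E2A on top of HEB was compared in DKO against HEBKO, where 3.63% of genes were called. Tcf12 was also lower in DKO, at 10.68, 10.73 and 10.71, than in HEBKO, at 11.15 and 11.48. The comparison therefore does not separate E2A loss from a lower Tcf12 signal. No Gbp gene passed by limma, and 1, Gbp11, had an unadjusted p under 0.05, as did 1998 of the 13138 genes tested. The difference was 0.06 for Gbp8 (95% interval -0.41 to 0.52), 0.1 for Gbp4 (-0.1 to 0.31) and 0.35 for Gbp11 (0.04 to 0.67, adjusted p = 0.256). For Gbp3 it was 0.01 (-0.27 to 0.3). The interval for Gbp4 leaves out differences as large as its fall in HEBKO, and that for Gbp8 leaves room for a shift of up to 0.52 log2 units. The departure from additivity was called by limma for 0 of the 6 genes, none of which had an unadjusted p under 0.05, and for 0.632% of all genes. It was 0.24 for Gbp4 (-0.05 to 0.52). For the probe set shared by the chromosome 5 genes, in the fit of every probe set with a symbol, it was 0.42 (0.04 to 0.8). That did not pass the test (limma adjusted p = 0.534, with 0.433% of probe sets called).

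**Figure D3:**
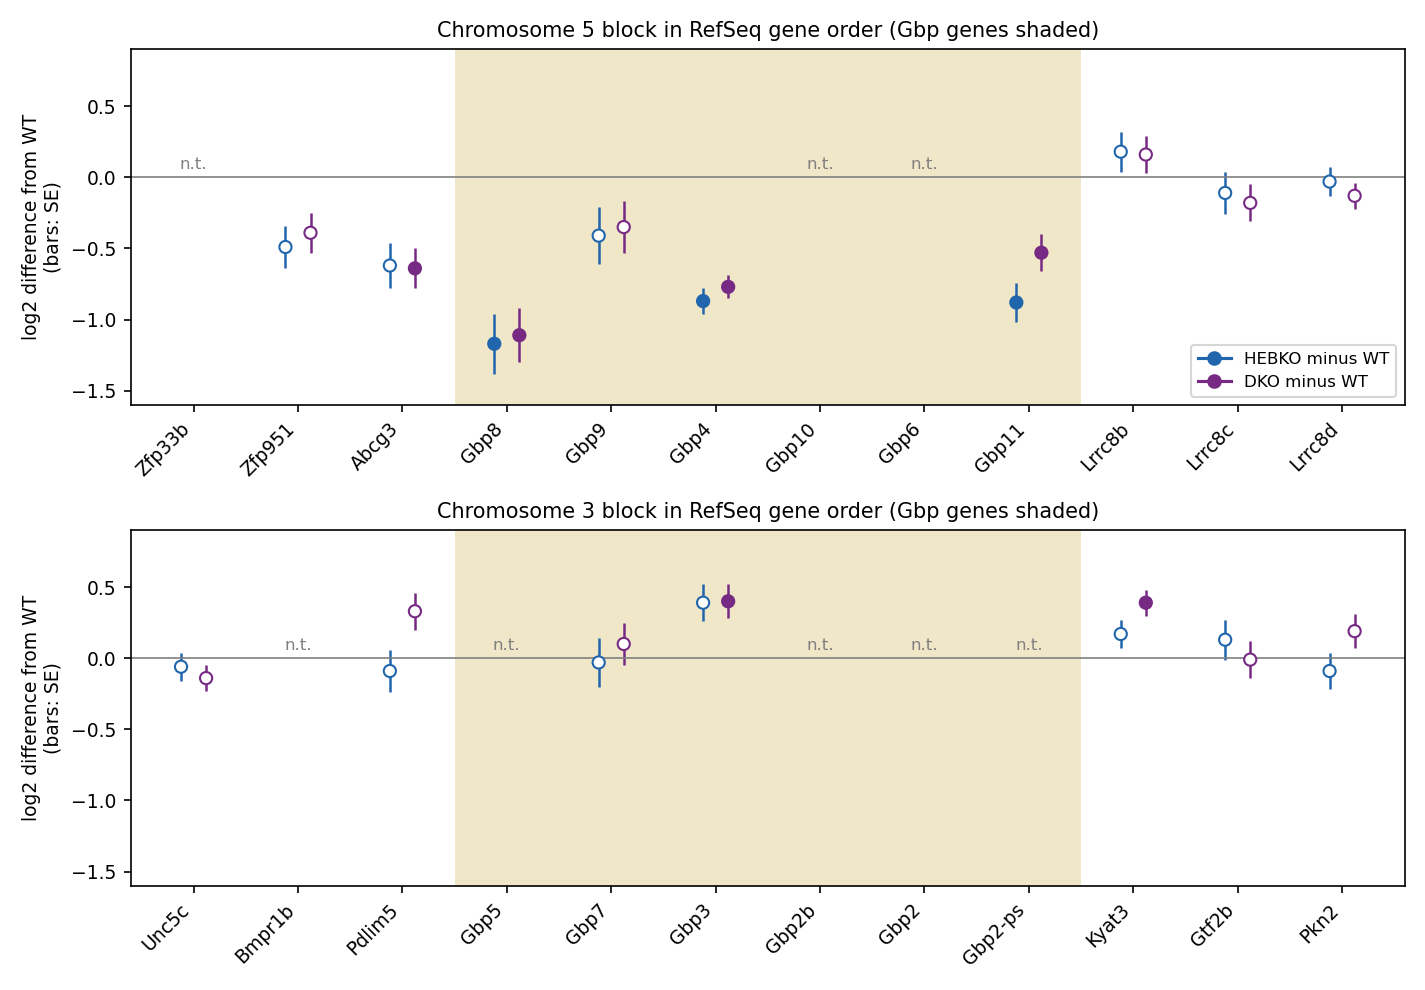
Log2 difference from WT (vertical axis, bars are SE) in HEBKO and DKO for the Gbp genes of both clusters and for neighbours. The neighbours are the 3 nearest protein-coding genes on each side, leaving out symbols of the Gm-number and Rik kinds. Genes are in RefSeq order along the chromosome, with equal spacing and Gbp genes shaded. Filled points had a limma adjusted p under 0.05, and n.t. marks a gene that was not tested. Among the neighbours the only filled point below 0 is Abcg3 in DKO, where 5.41% of all genes tested were called lower.

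The 3 nearest protein-coding genes on each side of the clusters, leaving out symbols of the Gm-number and Rik kinds, were read in the same fit. Nearest to Gbp8 among these, Abcg3, a gene of the ATP-binding cassette transporter family, was lower in DKO (-0.64 ± 0.14 SE, limma adjusted p = 0.0107). In DKO 5.41% of all genes tested were called lower. Abcg3 was at -0.62 ± 0.16 SE in HEBKO (adjusted p = 0.0947). Zfp951, a zinc-finger gene further out, was at -0.49 in HEBKO and -0.39 in DKO (adjusted p 0.145 and 0.09). On the other side, beyond Gbp11, Lrrc8b, Lrrc8c and Lrrc8d, subunits of a volume-regulated anion channel, lay between -0.18 and 0.18 with no call. Beside the chromosome 3 cluster, Kyat3 was higher in DKO (0.39 ± 0.09 SE, adjusted p = 0.016), where 8.18% of all genes were called higher. The other 4 neighbours tested there were not called.

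Genes that induce Gbps were compared with the Gbps in the same fit. The list of interferons and inducing cytokines had 10 of 11 members on the array and 3 tested. None was called against WT or had an unadjusted p under 0.05 in HEBKO or DKO (limma). Of all 13138 genes tested, 2190 in HEBKO and 3378 in DKO were under that unadjusted p. Ifng and Ifnb1 were below the 40th percentile on all 10 arrays. Of 17 interferon receptors and signal transducers, limma called 0 in HEBKO (0 at an unadjusted p under 0.05) and 5 in DKO, 4 higher and 1 lower, where 8.18% of all genes were called higher and 5.41% lower. In DKO Irf1, the transcription factor that binds ISRE-like sites of Gbp genes, rose by 0.57 ± 0.1 SE (limma adjusted p = 0.0027). Irf9, a DNA-binding factor of the interferon response, rose by 0.63 ± 0.19 SE (adjusted p = 0.0456), and Ifngr2 by 0.48 ± 0.1 SE (adjusted p = 0.00615). Jak1 also rose, while the other chain of the interferon gamma receptor, Ifngr1, fell by 0.75 on the log2 scale (adjusted p = 0.00587).

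Of 8 inhibitors of interferon signalling, limma called 0 in HEBKO. There 2 were at an unadjusted p under 0.05, beside 2190 of all 13138 genes tested. In DKO 3 were called, 1 higher and 2 lower, beside the same 8.18% and 5.41% of all genes. Socs1 and Socs3, which block Jak kinases and cytokine receptors, fell by 0.67 and 0.68 on the log2 scale in DKO (limma adjusted p 0.000493 and 0.00639), and the phosphatase gene Ptpn6 rose by 0.37 (adjusted p = 0.0476). In HEBKO Socs1 was at -0.29 and Socs3 at -0.43, without a call.

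No gene of the list of other interferon targets was called lower in HEBKO or DKO. Of 28 interferon-induced genes tested, 0 were called in HEBKO (median 0.12, 6 at an unadjusted p under 0.05, and 2 called without WT 2) and 7 rose and 0 fell in DKO (median 0.32, with 8.18% of all genes called higher). The DKO count was 4 without WT 3 and between 6 and 10 without any other array. B2m, the light chain of MHC class I, rose by 0.87 ± 0.11 SE (limma adjusted p = 0.000302), Psme2, a proteasome activator subunit, by 0.85 ± 0.13 SE (adjusted p = 0.000935), and Ddx58, the RNA sensor RIG-I, by 0.59 ± 0.11 SE (adjusted p = 0.00452). Ifit1, an antiviral RNA-binding protein, read 5.75, 5.9 and 5.7 in WT, below the filter, and 8.08, 6.6 and 6.22 in DKO (difference 1.18 ± 0.35 SE, adjusted p = 0.0419). Of the immunity-related GTPases and other interferon-inducible GTPases, 8 of 18 were on the array and 4 were tested, with no call by limma (0 in HEBKO and 1 in DKO at an unadjusted p under 0.05). Irgm1, which controls the vacuole GTPases of this group, was at 9.09, 8.17 and 8.15 in DKO and at 7.68 to 8.03 in WT (adjusted p = 0.0559). None of the 7 atlastins and related large GTPases tested was called, and 1 each in HEBKO and DKO had an unadjusted p under 0.05.

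DKO 1 stood apart from DKO 2 and DKO 3 for several of these genes, with Irf7 at 8.58 against 7.59 and 7.75 and Rtp4 at 8.96 against 7.22 and 7.4. It also held the highest DKO value of Gbp7, Gbp11, Gbp9 and Gbp3, and the lowest of Gbp8 and Gbp4. Without DKO 1, 6 interferon-induced genes were called in DKO, and Gbp4, Gbp8 and Gbp11 were still called lower in DKO.

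**Figure D4:**
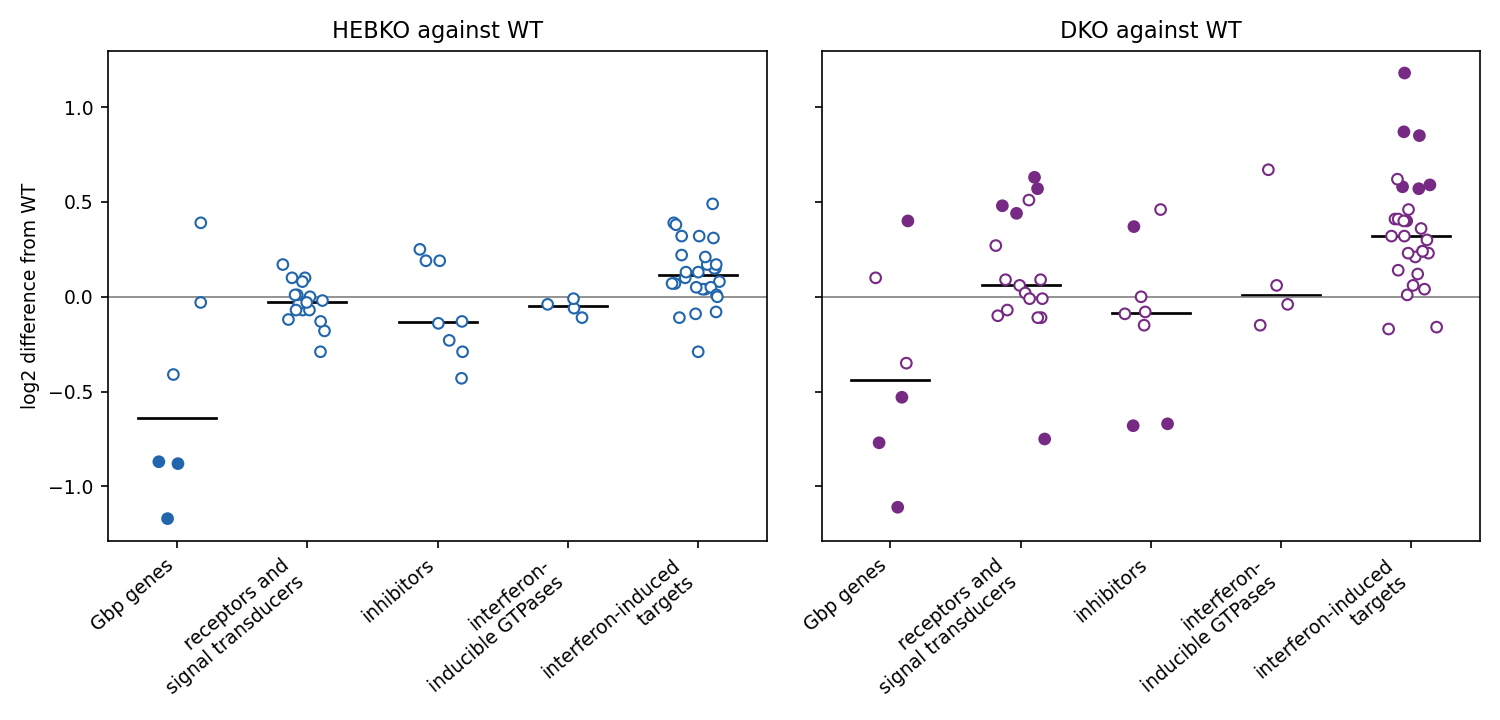
Log2 difference from WT (vertical axis) of each tested gene in HEBKO (left) and DKO (right), for the Gbp genes and for lists of interferon pathway genes (horizontal axis). Each point is a gene, filled where the limma adjusted p was under 0.05, and lines are list medians. The Gbp median is -0.64 in HEBKO and -0.44 in DKO, and that of the interferon-induced targets is 0.12 and 0.32.

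Markers of maturation and of other cells were read beside these changes. Sums of intensity give most weight to bright probe sets. Among the mature T cell markers, Gimap6 read 11.29, 11.58 and 11.61 log2 units in WT, where no other exceeded 7.8. The summed intensity of 10 DP thymocyte markers was 49433 to 52199 units in WT, 48242 to 49766 in E2AKO, 34619 to 46277 in HEBKO and 23458 to 27879 in DKO. In HEBKO 1 of the 10 was called lower (0 without WT 3 or HEBKO 1 and 3 without HEBKO 2), where 0.632% of all genes were, and in DKO 8, where 5.41% were. The summed intensity of 9 mature T cell markers was 3429 to 4069 in WT, 2911 to 4394 in E2AKO, 4555 to 5157 in HEBKO and 8926 to 11472 in DKO, with 0 called higher in HEBKO (1 without WT 2 or HEBKO 2) and 8 in DKO, where 8.18% of all genes were. Cd4 was lower in DKO than in HEBKO (log2 difference -1.21, limma adjusted p = 0.00116). In that comparison the 6 tested Gbp genes differed by 0.01 (Gbp3) to 0.35 (Gbp11), and none was called. The probe set shared by Gbp2 and Gbp2b was higher by 0.73 in the fit of every probe set with a symbol. Of 12 macrophage and dendritic cell markers, 8 were below the 40th percentile on all 10 arrays, and the sum was 728 to 784 in WT, 682 to 765 in E2AKO, 674 to 759 in HEBKO and 634 to 701 in DKO. The sums for 9 thymic epithelial markers were 1272 to 1385 in WT, 1067 to 1191 in E2AKO, 1027 to 1051 in HEBKO and 898 to 1051 in DKO. Of the 6 tested, Cldn4 was called lower in HEBKO (log2 difference -1.01) and in DKO (-1.26), and Epcam in DKO (-0.54). The shares of all genes called lower were 0.632% and 5.41%. In WT, HEBKO and DKO the sums for 7 B cell markers were 595 to 623, 527 to 609 and 459 to 522. Those for 9 NK and innate lymphoid markers were 550 to 628, 606 to 806 and 486 to 603. For 8 endothelial and fibroblast markers they were 1508 to 1728, 1637 to 1652 and 1845 to 1916. Pecam1 was the brightest of these 8, at 9.79 to 9.85 log2 units in WT and 10.14 to 10.28 in DKO. A further 3 were below the 40th percentile on all 10 arrays. The sums for 2 red cell markers were 136 to 150, 118 to 148 and 112 to 145. The part of these shifts in the Gbp differences was not tested.

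Over the 10 arrays, the genes with the pattern most like that of Gbp8 were Uspl1 (Pearson r 0.951), Tbc1d8 (0.941), Nr1d1, the clock repressor Rev-erb alpha (0.938), Spen (0.938) and Garre1 (0.931). Their differences from WT were smaller than that of Gbp8, from -0.62 (Uspl1) to -0.23 (Garre1) in HEBKO. Those most like Gbp11 were Fam160b1 (0.963), Lrig1, a negative regulator of receptor tyrosine kinases (0.954), Rgs14 (0.951), Klf13 (0.95) and Rreb1 (0.945). Lrig1 differed from WT by -1.16 in HEBKO and -0.59 in DKO, more than Gbp11 did (-0.88 and -0.53). The others most like Gbp11 differed by -0.49 to -0.4 in HEBKO and -0.33 to -0.22 in DKO. The correlations were the highest of 13138 genes, and with 10 arrays in 4 groups such values describe the pattern only.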

How the data were processed

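Expression was measured on 1 Affymetrix array per mouse. The authors deposited linear intensity values made by RMA (background correction, quantile normalization and summary per probe set), per the submitters' processing notes; its version and the genome build are not given in the sources used here. Their log2 was used as it stands. Of 34760 probe sets, 21640 carried 1 symbol, 1321 several and 11799 none; only the first were tested, with the highest-mean probe set per gene. Of 19937 genes, 13138 were at or above the array's 40th percentile on 2 or more arrays and were tested. limma 3.58.1 in R 4.3.3 fitted 1 mean per genotype to all 10 arrays (residual degrees of freedom 6). The 2-sided p-values of 7 contrasts were adjusted by Benjamini-Hochberg over all genes tested and called under 0.05. The same steps were tested on simulated data. The labels name separate mice, so p-values measure the spread between mice, and the small number of arrays limits the precision. Every Gbp gene is named; of each list, up to 4 called genes with the largest difference, or up to 2 if none was called, plus genes read beside the Gbps after their values were seen (Ifng, Ifnb1, Jak1, Irf7, Rtp4). The family, its members and the gene lists were chosen with earlier results of these data known. Alternatives were other filters, normalizations, moderation and weights, the replicate block, the groups compared only and each array left out; sex as a term, all probe sets with a symbol and, for single genes, the groups compared only were added after seeing the data. Sex was inferred from the intensities of Xist and of Y-chromosome genes. By these, 5 of the 10 arrays were female (WT 2, E2AKO 1, HEBKO 1, DKO 1 and DKO 3). Promoter windows are from RefSeq (GRCm38.p6).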

Additional observations from a re-analysis of the deposited data

Results flagged for a closer look

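Loss of HEB and loss of E2A differed directly for Gbp4. Its log2 difference between HEBKO and E2AKO was -0.74 (limma adjusted p = 0.0418), with HEBKO at 9.88 and 9.84 and E2AKO at 10.63 and 10.56. The call ended with arrays shifted to one median, with only the compared groups fitted (adjusted p = 0.129), and when WT 3 or any array of E2AKO, DKO or HEBKO 1 was left out.

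The probe set that Gbp2 and Gbp2b share stood outside the genes with 1 symbol and was higher in DKO than in WT by 0.77 on the log2 scale (limma adjusted p = 0.0025), with all 3 DKO arrays above the other 7. Of all probe sets with a symbol, 14.1% were called in DKO against WT, and 7.59% had all DKO arrays above the others. Which of Gbp2 and Gbp2b the signal came from was not tested.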

How the results depend on the processing

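Counts of called Gbp genes stayed within 1.5 times under the alternatives, apart from HEBKO against E2AKO and arrays left out. HEBKO against E2AKO gave 1 gene, 0 with arrays shifted to one median or with only the compared groups fitted, and 2 with trend and robust moderation. Leaving out each array gave 0 to 3 calls for HEBKO (3 with all arrays; 0 without HEBKO 1), 2 to 4 for DKO (4; 2 without WT 3 or DKO 3), 1 to 3 for DKO against E2AKO (3; 1 without E2AKO 1 or DKO 3), 0 to 2 for HEBKO against E2AKO, and 0 to 0 for E2AKO, DKO against HEBKO and the interaction. The main fit did not pair samples by the labels' replicate numbers. Of 13 same-numbered pairs, 10 had a correlation of their deviations from the group means above 0.1 (-0.29 to 0.48). Whether equal numbers mark a shared batch was not tested. With the number as a replicate block the counts were 2 for HEBKO (Gbp8 at an adjusted p of 0.0535), 4 for DKO, 3 for DKO against E2AKO and 2 for HEBKO against E2AKO.

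No called difference changed sign: of 320 values under alternatives 277 stayed called and 43 did not. The signs that turned belonged to differences not called with all arrays. For Gbp3, DKO against HEBKO was -0.02 (quantile normalization again, and sex as a term), -0.01 (median shift) and -0.05 (array weights, whose estimation stopped short of its tolerance). Gbp7 in HEBKO was 0.02 (median shift) and 0.01 (weights), in DKO against HEBKO -0.01 (weights), and its interaction 0 with the block. Gbp9 in E2AKO was -0.03 (weights) and its interaction -0.02 (median shift). Ranges over arrays left out that crossed 0 were, in E2AKO, -0.03 to 0.21 (Gbp11), -0.04 to 0.19 (Gbp3), -0.56 to 0.17 (Gbp8), -0.01 to 0.1 (Gbp9) and -0.09 to 0.16 (the Gbp2 and Gbp2b probe set). In HEBKO they were -0.18 to 0.13 (Gbp7), -0.84 to 0.02 (Gbp9) and -0.15 to 0.24 (Gbp2 and Gbp2b), and in DKO -0.07 to 0.27 (Gbp7). In DKO against E2AKO Gbp7 ran from -0.23 to 0.11. In DKO against HEBKO they were -0.12 to 0.15 (Gbp3), -0.04 to 0.3 (Gbp7), -0.14 to 0.18 (Gbp8) and -0.37 to 0.49 (Gbp9). In HEBKO against E2AKO Gbp2 and Gbp2b ran from -0.18 to 0.21. For the interaction they were -0.2 to 0.07 (Gbp3), -0.2 to 0.14 (Gbp7), -0.11 to 0.62 (Gbp8) and -0.41 to 0.45 (Gbp9). The cause was not tested. Of 416 counts of list members called, 30 moved by more than 1.5 times, among them 1 immunity-related GTPase called in DKO with the block or without WT 2, DKO 2 or DKO 3, and 1 atlastin-related gene without WT 2, where none was called with all arrays. Gbp5 and Gbp2b, below the filter, give no measured change.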

Other observations

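Partners of the Gbp proteins were read in the same fit. Of 7 inflammasome partners on the array 3 were tested, and Pycard, the adaptor ASC, fell in DKO by 0.36 on the log2 scale (limma adjusted p = 0.0217, where 5.41% of all genes were called lower), from 9.3 to 9.33 in WT to 8.89 to 9 in DKO. The list had 0 calls without WT 3, DKO 1, DKO 2 or DKO 3. Gsdmd, the pore-forming gasdermin D, was at -0.06 in DKO without a call. Nlrp3, Casp1 and Casp4 were below the filter. Of 5 enzymes of protein prenylation, which attach and process the lipid anchor of some Gbps, Fntb, the beta subunit of farnesyltransferase, rose in DKO by 0.95 ± 0.14 SE (adjusted p = 0.000644, where 8.18% of all genes were called higher). Its partner Fnta was at 0.16 and Pggt1b, which serves the longer lipid anchor, at 0.08, without a call. In HEBKO none of these genes was called.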
